A study of Mus musculus with 11 samples.

Results

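The genes described here encode the keratins of stratified epithelium, skin and hair, together with the proteins of the cornified envelope, in mammary tumours of MMTV-Neu+/- mice. The rule that picks them reads gene symbols and no measured value. Included were every numbered keratin (Krt) outside the simple and basal keratins Krt5, Krt7, Krt8, Krt14, Krt15, Krt17, Krt18 and Krt19, every small proline-rich protein gene (Sprr), and Lor, Flg, Ivl, Krtdap, Sbsn, Tgm1, Tgm3, Klk7, Dsg1a, Dsc1, Calml3 and Padi3. Of 62 symbols that fitted, 52 had values for all tumours, among 16351 genes measured in both data tables. Another 4 were measured only in DMBA-treated tumours and 6 only in untreated tumours, and these are given separately.

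Tumour RNA was compared with a whole mouse reference RNA on 2-colour arrays. The 5 DMBA-treated tumours arose in female mice given dimethylbenzanthracene (DMBA), a polycyclic hydrocarbon carcinogen, and the 6 untreated tumours in mice without it. All mice, controls included, were MMTV-Neu+/-: the mouse mammary tumour virus promoter, active mainly in mammary epithelium, drives Neu, an Erbb2 gene, as a transgene. The labels give no age, dose, time or strain, do not say whether tumours came from separate mice, and name no tissue other than tumour. Numbers follow accession order inside each group and only name a tumour. A number recurs in the titles of tumours DMBA 3 and DMBA 4, and the labels do not explain it. The p-values thus cover only how far these samples scatter, and part of that scatter may be technical.

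Keratinocytes of the skin leave the basal layer, exchange Krt5 and Krt14 for Krt1 and Krt10, and then build a cornified envelope, a sheath of loricrin, involucrin and small proline-rich proteins that transglutaminases cross-link under the cell membrane. Hair follicles use further keratins for the inner root sheath and for the hair shaft. Normal mammary ducts and alveoli form no such envelope, whereas a whole mouse reference, by its name, also covers skin. A low ratio compares a tumour with that pool of tissues, not with normal mammary gland. In bulk RNA, fewer cells of a type and less RNA per cell cannot be told apart.

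Values were read as log2 ratios, and tumour over reference is the likely direction. The base was read from the range of the values, and every fold size below rests on it. The labels do not name the dye of the tumour channel, so the direction was read from genes of liver, skeletal muscle and brain. Their medians were below 0 on every array, between -4.59 and -3.63 for liver, between -4.12 and -2.97 for muscle and between -1.98 and -1.23 for brain. Every sign below rests on that reading. The values used here are ratios alone, so a ratio near 0 does not show how much RNA of a gene either sample held. Most listed mammary luminal markers were higher than the reference. Of 12 such genes, 10 were higher in DMBA-treated and 11 in untreated tumours, with list medians of 2.62 and 2.39. That list holds Krt8 and Krt18 but not the simple keratins Krt7 and Krt19. Krt19 was lower in each group (means of -3.50 in DMBA-treated and -3.84 in untreated tumours), and Krt7 was not called in either. Fibroblast markers were lower in 7 of 7 genes in each group, adipocyte markers in 5 of 6 and basal or myoepithelial markers in 8 of 9. Whether the cell makeup of the tumours plays a part in the ratios below was not tested.

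Most of these skin and hair genes were lower than the reference. In DMBA-treated tumours 42 of 52 were called lower and 1 higher, and 9 were not called (limma, adjusted p under 0.05). Over all 19087 genes tested there, 31.7% were called lower and 26.1% higher, 57.8% in all. In untreated tumours 39 of 52 were lower, 4 were higher and 9 were not called, against 32.1% lower and 28.8% higher, 60.9% in all, over 16887 genes. By at least 1 on the log2 scale, 37 were lower in DMBA-treated and 27 in untreated tumours, where 18.8% and 15.6% of all genes were. The median over the 52 genes was a log2 ratio of -1.70 in DMBA-treated and -1.20 in untreated tumours, beside -0.02 and 0 over all genes. In both groups 37 genes were called lower, where 24.8% of all genes in both tables were. The members lay below 0 in all 11 tumours for 37 genes and above 0 in all 11 for 1 gene, Krt88. Matching shares over all genes were not counted for these signs.

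**Figure D1:**
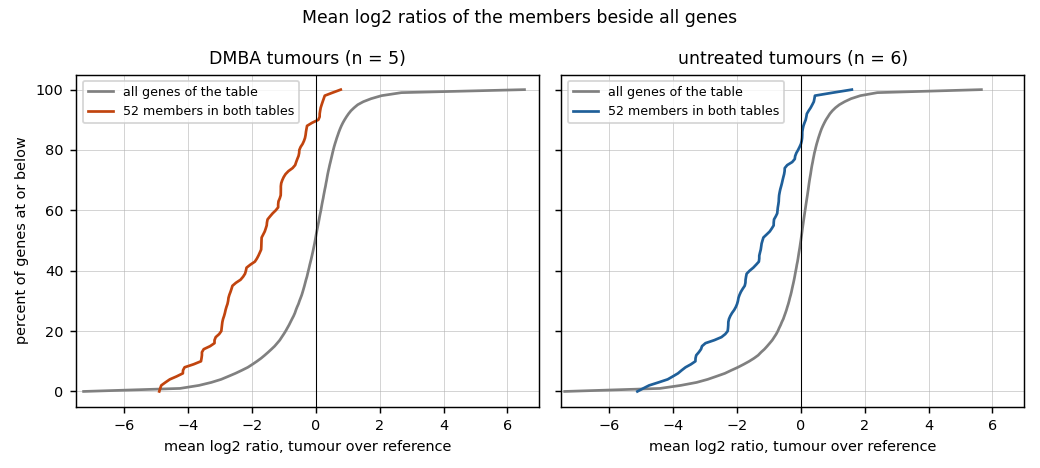
Share of genes (percent, y axis) whose mean log2 ratio of tumour over reference (x axis) lies at or below a value, for all genes of a table (grey) and for the 52 skin and hair genes (coloured), in DMBA-treated (n = 5) and untreated (n = 6) tumours. The coloured lines lie to the left of the grey ones over most of their length, with medians of -1.70 and -1.20.

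The structural and secreted proteins of the envelope were called lower in 4 of 4 members in each group, with medians of -3.17 in DMBA-treated and -3.50 in untreated tumours. Lor encodes loricrin, the main protein of the cornified envelope. Its log2 ratios in DMBA 1 to 5 were -4.84, -4.35, -4.88, -5.30 and -5.13. Those of the untreated tumours ran from -5.17 to -4.44 with a median of -4.76. Every tumour was far below the reference and the groups overlapped. The means of -4.90 ± 0.36 (SD, n = 5, adjusted p = 1.17e-06) and -4.76 ± 0.25 (SD, n = 6, adjusted p = 8.49e-10) correspond to 29.9-fold and 27.1-fold lower, and only 0.382% and 0.616% of all genes had means at or below them. Krtdap, keratinocyte differentiation-associated protein, read -3.75, -3.33, -3.69, -3.99 and -3.23 in DMBA 1 to 5. In the untreated tumours it ran from -4.31 to -3.52 with a median of -3.83. Sbsn, suprabasin, lay lower in DMBA 4 than in the other DMBA-treated tumours, at -2.57, -2.71, -2.72, -3.17 and -2.59 in DMBA 1 to 5, with a mean of -3.13 ± 0.39 in untreated tumours (n = 6). Ivl, involucrin, an early envelope precursor, was the least low of the 4. It read -2.73, -3.02, -2.64, -2.02 and -2.89 in DMBA 1 to 5 and ran from -1.94 to -1.45 with a median of -1.78 in untreated tumours, without overlap, with means of -2.66 ± 0.39 and -1.74 ± 0.20 (adjusted p = 1.29e-05 and 3e-07). Flg, the filaggrin gene, whose product bundles keratin filaments, was measured only in untreated tumours, where it was -3.87 ± 0.14 (n = 6, adjusted p = 8.33e-10).

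The small proline-rich proteins are short cross-bridging precursors of the envelope, encoded side by side on mouse chromosome 3 with Lor, Ivl and Flg. In each group 9 of 13 Sprr genes were called lower and 4 were not called, and 7 genes were lower in both groups. Family members differed widely. The promoters of the gene with the lowest mean, Sprr2d, and of a relative near 0, Sprr2k, are shown with those of Lor, Krtdap, Krt10 and Krt25, so that low members and one near 0 can be seen side by side. Each window runs from 250 bases before to 50 bases after the annotated start (RefSeq, GRCm38.p6, gene strand, 5′ to 3′). Capitals mark the motifs TATAAA, on either strand, and TGANTCA, where N is any base. With G or C at N, TGANTCA is the core of an AP-1 site, and matches with another base were counted too.
Sprr2d, chr3:92338890-92339189, plus strand: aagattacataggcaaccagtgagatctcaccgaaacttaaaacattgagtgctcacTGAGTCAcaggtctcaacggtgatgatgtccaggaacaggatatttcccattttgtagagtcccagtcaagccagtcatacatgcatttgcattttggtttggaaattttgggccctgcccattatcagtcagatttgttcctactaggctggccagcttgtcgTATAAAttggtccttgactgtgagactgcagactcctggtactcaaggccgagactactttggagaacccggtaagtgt
Sprr2k, chr3:92432332-92432631, plus strand: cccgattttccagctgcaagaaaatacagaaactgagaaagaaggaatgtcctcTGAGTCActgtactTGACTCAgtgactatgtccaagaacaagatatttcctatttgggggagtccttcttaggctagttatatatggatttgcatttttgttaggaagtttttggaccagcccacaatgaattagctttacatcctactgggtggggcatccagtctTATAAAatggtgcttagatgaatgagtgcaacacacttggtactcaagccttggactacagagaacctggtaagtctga
Lor, chr3:92083093-92083392, minus strand: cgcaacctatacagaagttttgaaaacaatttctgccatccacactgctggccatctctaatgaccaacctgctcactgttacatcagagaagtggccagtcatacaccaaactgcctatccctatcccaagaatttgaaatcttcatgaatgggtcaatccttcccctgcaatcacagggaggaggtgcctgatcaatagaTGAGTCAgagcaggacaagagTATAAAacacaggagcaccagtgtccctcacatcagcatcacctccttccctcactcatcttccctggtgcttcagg
Krtdap, chr7:30787655-30787954, plus strand: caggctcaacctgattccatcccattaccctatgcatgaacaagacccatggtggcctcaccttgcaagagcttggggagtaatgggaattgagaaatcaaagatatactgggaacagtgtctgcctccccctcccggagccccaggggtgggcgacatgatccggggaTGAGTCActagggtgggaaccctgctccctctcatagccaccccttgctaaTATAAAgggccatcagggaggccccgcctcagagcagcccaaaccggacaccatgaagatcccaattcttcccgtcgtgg
Krt10, chr11:99389315-99389614, minus strand: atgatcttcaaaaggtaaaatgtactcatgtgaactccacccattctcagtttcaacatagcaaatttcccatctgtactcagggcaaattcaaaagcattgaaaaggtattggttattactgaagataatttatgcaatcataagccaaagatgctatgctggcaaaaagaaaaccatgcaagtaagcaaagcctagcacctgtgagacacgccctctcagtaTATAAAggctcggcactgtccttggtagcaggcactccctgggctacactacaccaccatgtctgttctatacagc
Krt25, chr11:99322902-99323201, minus strand: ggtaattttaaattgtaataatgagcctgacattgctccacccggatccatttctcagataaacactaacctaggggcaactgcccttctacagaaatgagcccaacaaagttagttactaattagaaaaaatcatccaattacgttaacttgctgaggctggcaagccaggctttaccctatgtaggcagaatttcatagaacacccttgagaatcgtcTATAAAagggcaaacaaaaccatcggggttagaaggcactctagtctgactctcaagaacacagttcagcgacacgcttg

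All 6 windows hold TATAAA, which begins at -29 in Sprr2d and Sprr2k, -27 in Lor, -30 in Krtdap and Krt25, and -26 in Krt10, counted from the start. TGANTCA stands at -193 in Sprr2d, -48 in Lor and -81 in Krtdap, and at 2 places in Sprr2k. Windows were listed for 39 of the 52 members. A TATAAA match occurred in 25 of them (64.1%), against 15.7% of 27025 genes with a window. A TGANTCA match occurred in 13 (33.3%), against 8.97%. The Sprr genes held TGANTCA in 8 of 11 windows (72.7%) and the keratins in 1 of 20 (5%). In Sprr1b the only match read TGAATCA. Most Sprr windows belong to Sprr2 genes, which are close relatives, so these windows are not independent of each other. Both motifs were searched on both strands, and matches of the 2 motifs did not overlap in the windows printed. Sprr2d and Sprr2k each hold both motifs, although Sprr2d was far below the reference and Sprr2k near it. A match is only a run of letters in the window, and binding was not measured.

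Sprr2d read -3.13, -2.47, -3.19, -2.96 and -3.06 in DMBA 1 to 5. In untreated tumours its values ran from -3.22 to -2.78 with a median of -3.09. It was thus low in all 11 tumours, with means of -2.96 ± 0.29 and -3.07 ± 0.16 (adjusted p = 3.44e-06 and 3.52e-09). Sprr2k read -0.03, 0.68, -0.17, 0.22 and 0.071 in DMBA 1 to 5 and ran from 0.041 to 0.36 with a median of 0.20 in untreated tumours, and was not called in either group (adjusted p = 0.385 and 0.0681). Sprr2h (-2.60 ± 0.20 and -2.29 ± 0.21), Sprr3 (-2.73 ± 0.32 and -1.98 ± 0.48) and Sprr1a (-2.20 ± 0.18 and -1.30 ± 0.23) were also lower in DMBA-treated and untreated tumours, and untreated 2 held the highest Sprr1a value of its group, -0.85. Sprr2f was lower by a smaller amount, at -0.51 ± 0.26 and -0.50 ± 0.23. Sprr2a1 read -0.85, -0.82, -1.03, -0.93 and -0.94 in DMBA 1 to 5 and ran from -2.20 to -1.50 with a median of -1.90 in untreated tumours. Sprr2b and Sprr2e were called lower in DMBA-treated tumours and were not called in untreated tumours, and that difference was not tested. Sprr2b read -0.56, -0.45, -0.65, -0.91 and -0.44 in DMBA 1 to 5 and ran from -0.11 to 0.26 with a median of 0.069 in untreated tumours. Sprr2e read -0.49, -0.089, -0.62, -0.36 and -0.41 and ran from -0.32 to 0.083 with a median of -0.20. The DMBA call of Sprr2e (adjusted p = 0.0199) was lost without DMBA 1, 3 or 4 (adjusted p = 0.0654, 0.0721 and 0.0517). Sprr2g and Sprr2j-ps are annotated as transcribed pseudogenes. Sprr2g had 0.46, 0.49, 0.22, 0.10 and 0.13 in DMBA 1 to 5 and was not called there (adjusted p = 0.0595). In untreated tumours it ran from -0.74 to -0.26 with a median of -0.52 and was called lower (adjusted p = 0.00199). Sprr2j-ps, with 0.018, 0.46, -0.048, 0.14 and 0.022 in DMBA 1 to 5 and a run from -0.18 to 0.094 with a median of -0.10 in untreated tumours, was not called in either group. Sprr4 varied most in this family. It read -0.048, -0.27, 0.018, 1.47 and -0.088 in DMBA 1 to 5, where DMBA 4 alone stood well above 0, and ran from -1.55 to 0.20 with a median of -0.50 in untreated tumours. Its call there (adjusted p = 0.0393) was lost without untreated 1, 2, 5 or 6 (adjusted p = 0.0586, 0.1, 0.0923 and 0.0866). The Sprr2 genes are close relatives, and whether a feature reads 1 of them alone was not tested.

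**Figure D2:**
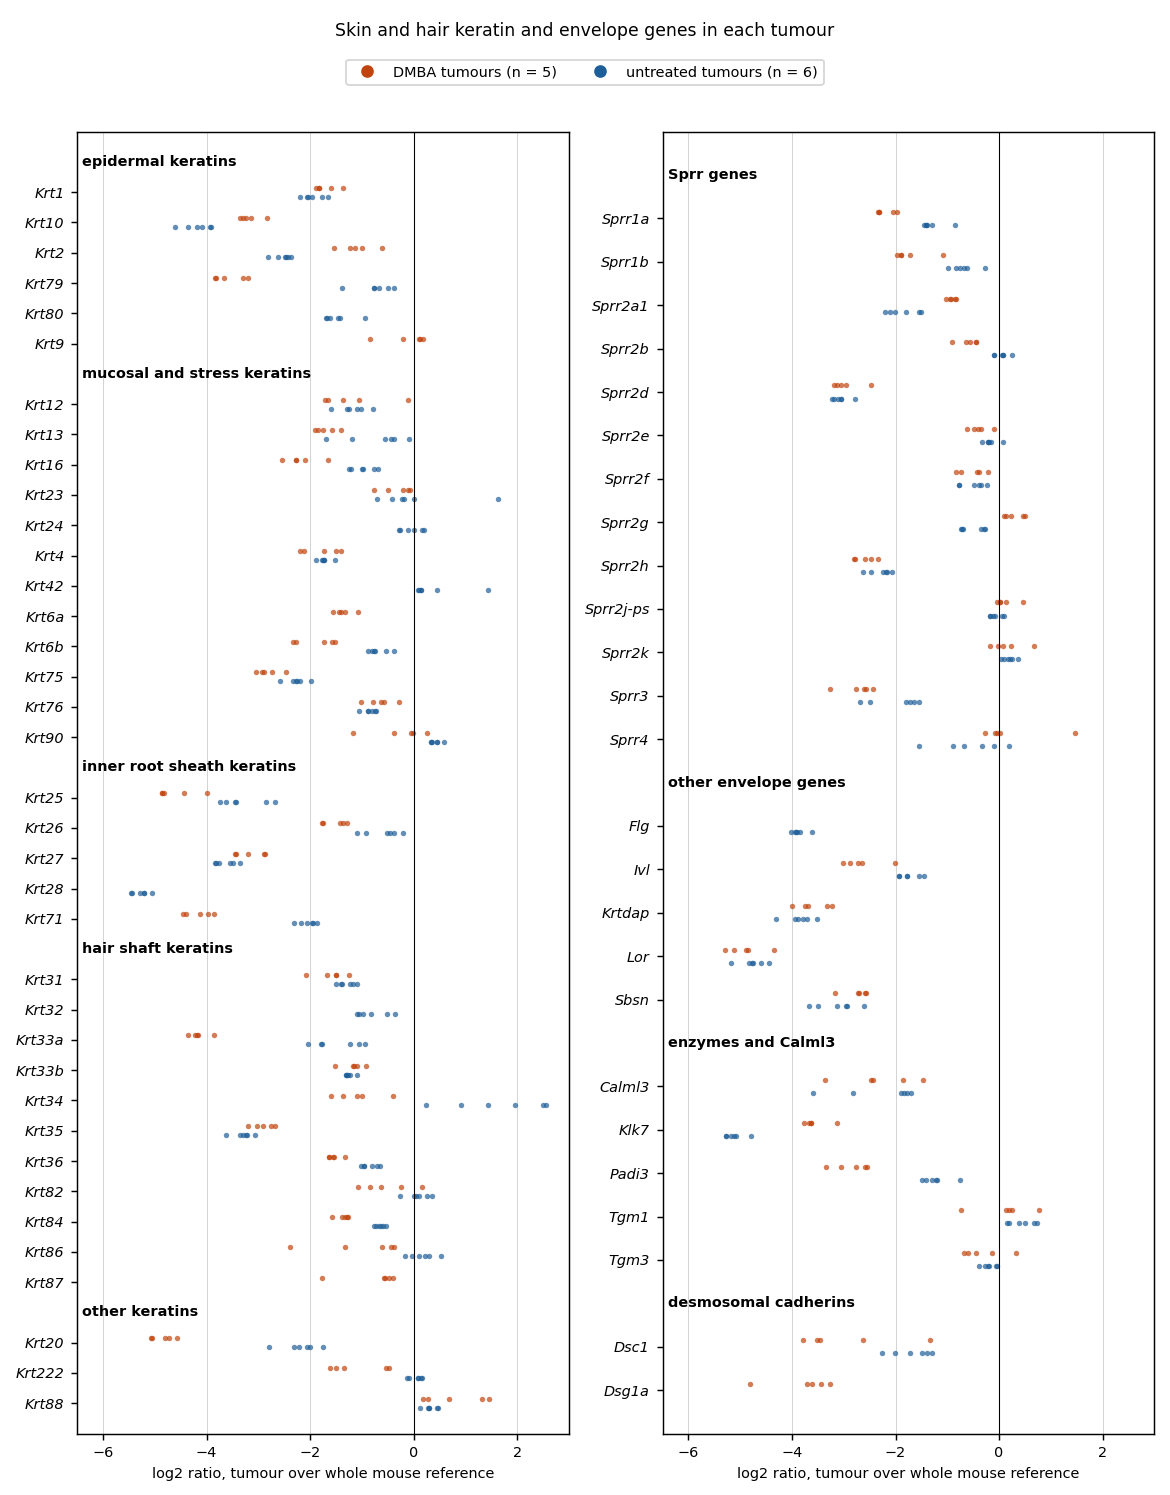
Log2 ratio of tumour over whole mouse reference (x axis) for each of the 62 genes (rows, by role), with a point for each DMBA-treated (n = 5) and untreated (n = 6) tumour. Lor, Krt25 and Klk7 lie far below 0 in every tumour, Krt88 lies above 0 in every tumour, and Krt34 lies on opposite sides of 0 in the groups.

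Keratins of the interfollicular epidermis and its appendages were called lower in 4 of 4 members in each group. Krt10, the partner of Krt1 in the spinous layer, read -3.30, -2.84, -3.23, -3.35 and -3.14 in DMBA 1 to 5. In untreated tumours it ran from -4.60 to -3.92 with a median of -4.14. The groups did not overlap, although every tumour was at least 2.84 below the reference on the log2 scale. The means were -3.17 ± 0.20 (adjusted p = 1.45e-06) and -4.18 ± 0.26 (adjusted p = 1.93e-09). Krt1 itself read -1.82, -1.37, -1.84, -1.88 and -1.60 in DMBA 1 to 5 and ran from -2.19 to -1.66 with a median of -2.0 in untreated tumours. Its means of -1.70 ± 0.21 and -1.95 ± 0.20 join features that disagreed. Krt2, a keratin of the upper epidermis, read -1.0, -1.54, -1.13, -0.60 and -1.22 in DMBA 1 to 5 and ran from -2.81 to -2.36 with a median of -2.47 in untreated tumours. Krt79, made in the hair follicle opening and sebaceous duct of mouse skin, read -3.83, -3.30, -3.82, -3.67 and -3.20 in DMBA 1 to 5. It ran from -1.38 to -0.38 with a median of -0.71 in untreated tumours, so that the groups lay well apart with means of -3.56 ± 0.30 and -0.74 ± 0.35 (adjusted p = 1.73e-06 and 0.000919).

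Mucosal, corneal and stress keratins were lower in 7 of 9 members in each group. The set as listed also holds Krt75, a keratin of the companion layer of the hair follicle, which was its lowest member. Krt75 read -2.94, -2.47, -2.88, -2.74 and -3.04 in DMBA 1 to 5 and ran from -2.58 to -1.98 with a median of -2.26 in untreated tumours. Krt4 and Krt13, which pair in the lining of the mouth and oesophagus, were at -1.79 ± 0.35 and -1.70 ± 0.21 in DMBA-treated tumours and at -1.73 ± 0.12 and -0.72 ± 0.60 in untreated tumours. Krt16 and Krt6b, induced in wounded or overgrowing epidermis, were lower too. Krt16 read -2.27, -1.66, -2.54, -2.27 and -2.09 in DMBA 1 to 5 and ran from -1.25 to -0.69 with a median of -0.98 in untreated tumours. Krt6b read -2.34, -1.53, -2.27, -1.57 and -1.74 and ran from -0.88 to -0.38 with a median of -0.75. Neither gene overlapped between the groups. The corneal keratin Krt12 (-1.18 ± 0.66 and -1.17 ± 0.28) and the palate keratin Krt76 (-0.66 ± 0.27 and -0.85 ± 0.12) had similar means in the groups. Krt90 was the highest member of this set. It read -0.006, -1.17, -0.38, -0.045 and 0.26 in DMBA 1 to 5 (adjusted p = 0.311) and ran from 0.33 to 0.58 with a median of 0.39 in untreated tumours, where it was called higher at a small size (adjusted p = 0.00172). Krt23 was not called in either group. In DMBA 1 to 5 it read -0.49, -0.069, -0.20, -0.11 and -0.76, and in untreated tumours it ran from -0.71 to 1.63 with a median of -0.21, with untreated 4 alone far above 0.

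All 4 inner root sheath keratins, which form the sleeve around the growing hair, were lower in each group, with medians of -3.67 in DMBA-treated and -2.67 in untreated tumours. Krt25 read -4.86, -3.99, -4.81, -4.86 and -4.43 in DMBA 1 to 5. It ran from -3.73 to -2.69 with a median of -3.44 in untreated tumours. Every tumour was low, and the DMBA-treated tumours lay below all untreated ones, at -4.59 ± 0.38 against -3.29 ± 0.43 (adjusted p = 1.41e-06 and 7.44e-08). Krt71 read -3.86, -3.97, -4.39, -4.46 and -4.13 in DMBA 1 to 5 and ran from -2.32 to -1.88 with a median of -2.01 in untreated tumours, again without overlap. Krt27 went the other way in its means, at -3.17 ± 0.28 and -3.64 ± 0.20, with overlapping values. Krt26 was the least low, with -1.43, -1.37, -1.75, -1.30 and -1.76 in DMBA 1 to 5 and a run from -1.10 to -0.21 with a median of -0.49 in untreated tumours.

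Hair shaft keratins were lower in 8 of 9 members in DMBA-treated tumours and in 6 of 9 in untreated tumours, with medians of -1.37 and -0.85. Krt33a read -4.35, -3.85, -4.22, -4.18 and -4.16 in DMBA 1 to 5. In untreated tumours it ran from -2.04 to -0.93 with a median of -1.50. Low in all 11 tumours, it was much lower on the DMBA arrays, at -4.15 ± 0.18 against -1.47 ± 0.46 (adjusted p = 1.06e-06 and 3.61e-05). Krt35, the lowest hair keratin in untreated tumours, read -3.04, -2.68, -3.21, -2.91 and -2.76 in DMBA 1 to 5 and ran from -3.62 to -3.07 with a median of -3.27 in untreated tumours, with overlap. Krt34 was the exception. It read -1.37, -0.40, -1.09, -1.0 and -1.61 in DMBA 1 to 5 and ran from 0.23 to 2.55 with a median of 1.70 in untreated tumours. All DMBA-treated tumours were below and all untreated tumours above the reference, at -1.09 ± 0.45 (adjusted p = 0.00177) and 1.60 ± 0.92 (adjusted p = 0.00114). Krt86 read -2.38, -0.44, -1.33, -0.61 and -0.39 in DMBA 1 to 5, where DMBA 1 was the lowest, and ran from -0.16 to 0.53 with a median of 0.16 in untreated tumours, where it was not called. Its DMBA call (adjusted p = 0.0238) was lost without DMBA 3 (adjusted p = 0.0683). Krt82, a hair cuticle keratin, was called in neither group, with -0.62, -0.24, -1.08, 0.16 and -0.84 in DMBA 1 to 5 and a run from -0.26 to 0.36 with a median of 0.071 in untreated tumours. Its adjusted p in DMBA-treated tumours was 0.0507, and 0.0167 without DMBA 4. Krt31, Krt33b, Krt36 and Krt84 were lower in each group, with means between -1.60 and -1.18 in DMBA-treated and between -1.30 and -0.65 in untreated tumours. The hair keratins are close relatives as well, and cross-reading between them was not tested.

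Of the other keratins, Krt20, found in gut lining, urothelium and Merkel cells, read -4.74, -4.56, -5.04, -4.79 and -5.08 in DMBA 1 to 5 and ran from -2.79 to -1.76 with a median of -2.13 in untreated tumours. The groups lay apart, with means of -4.84 ± 0.22 (28.7-fold lower, adjusted p = 9.9e-07) and -2.19 ± 0.35 (4.56-fold lower, adjusted p = 5.32e-07). Krt222 read -1.35, -0.54, -1.50, -1.61 and -0.47 in DMBA 1 to 5 and ran from -0.12 to 0.16 with a median of 0.088 in untreated tumours, and was called lower in DMBA-treated and not called in untreated tumours (adjusted p = 0.00355 and 0.666). Krt88 was the only member called higher in both groups, where 18.1% of all genes in both tables were. It read 1.46, 1.31, 0.18, 0.27 and 0.68 in DMBA 1 to 5 and ran from 0.11 to 0.47 with a median of 0.29 in untreated tumours. The sizes were small, 0.78 ± 0.59 (adjusted p = 0.02) and 0.32 ± 0.13 (adjusted p = 0.00966), and the DMBA call was lost without DMBA 1 or DMBA 2 (adjusted p = 0.0556 and 0.065).

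Among enzymes and calcium-binding proteins, Klk7, a protease that loosens the corneodesmosomes of shed skin cells, was the lowest. It read -3.67, -3.14, -3.76, -3.63 and -3.62 in DMBA 1 to 5, where DMBA 2 stood somewhat above the rest, and ran from -5.27 to -4.78 with a median of -5.15 in untreated tumours. Padi3, a deiminase that acts in the hair follicle, read -2.75, -3.05, -3.34, -2.58 and -2.55 in DMBA 1 to 5 and ran from -1.49 to -0.75 with a median of -1.26 in untreated tumours, without overlap. Calml3, a calmodulin-like protein of stratified epithelium, was variable and low in each group, at -2.32 ± 0.71 and -2.27 ± 0.77. The cross-linking enzymes themselves did not share the low ratios. Tgm1, the membrane-bound transglutaminase of keratinocytes, read 0.24, 0.78, 0.14, 0.19 and -0.74 in DMBA 1 to 5 (adjusted p = 0.643). It ran from 0.16 to 0.74 with a median of 0.44 in untreated tumours and was called higher there at 0.44 ± 0.24 (adjusted p = 0.00531). Tgm3 read -0.67, 0.33, -0.45, -0.13 and -0.59 in DMBA 1 to 5 and ran from -0.40 to -0.046 with a median of -0.21 in untreated tumours, and was not called in either group (adjusted p = 0.16 and 0.0681).

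Dsc1, a desmosomal cadherin of the upper epidermis, read -3.52, -3.45, -1.32, -2.62 and -3.79 in DMBA 1 to 5 and ran from -2.25 to -1.29 with a median of -1.60 in untreated tumours. DMBA 3 was the highest of its group, and 1 of the 2 Dsc1 features held an exact 0 there. With that 0 taken as missing, the DMBA mean moved from -2.94 ± 1.0 to -3.21 (adjusted p = 1.74e-05). Its partner Dsg1a was measured only in DMBA-treated tumours, with -3.71, -3.60, -4.82, -3.27 and -3.44 in DMBA 1 to 5 (-3.77 ± 0.61, adjusted p = 1.32e-05), and DMBA 3 was the lowest.

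Of the genes measured in DMBA-treated tumours only, the stress keratin Krt6a was lower at -1.36 ± 0.18 (n = 5, adjusted p = 4.67e-05), and the hair keratin Krt87 read -1.78, -0.40, -0.57, -0.47 and -0.56 in DMBA 1 to 5 (adjusted p = 0.0214), with DMBA 1 far below the others. Krt9, the keratin of palm and sole skin, read -0.20, 0.19, 0.13, 0.10 and -0.84 and was not called (adjusted p = 0.561). Of those measured in untreated tumours only, the inner root sheath keratin Krt28 was the lowest, running from -5.47 to -5.06 with a median of -5.24 and a mean of -5.28 ± 0.16 (n = 6, 38.8-fold lower, adjusted p = 4.06e-10). Krt80 (-1.47 ± 0.28) and Krt32 (-0.81 ± 0.30) were lower as well. Krt24 ran from -0.29 to 0.20 with a median of -0.058 and Krt42 ran from 0.089 to 1.45 with a median of 0.14, and neither was called (adjusted p = 0.645 and 0.0853).

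Several features existed for 11 members, and some of these did not read alike. For Krt1, each table held a pair of features, annotated to the same records. On the DMBA arrays they averaged -3.61 ± 0.17 and 0.21 ± 0.33 (n = 5), and on the untreated arrays -4.07 ± 0.30 and 0.17 ± 0.16 (n = 6). In each table the low feature is annotated to the RefSeq transcript of Krt1 and the other to a separate cDNA record, so the Krt1 mean of -1.70 describes neither. Klk7 had 3 DMBA features with averages of -5.66, -2.80 and -2.23, and a single untreated feature at -5.12. Krt33b, with -1.18, -0.93, -1.52, -1.10 and -1.16 in DMBA 1 to 5 and a run from -1.31 to -1.10 with a median of -1.28 in untreated tumours, had DMBA features averaging -2.46 and 0.11. Sprr2a1 had DMBA features at -2.24 and 0.41, with 1 untreated feature at -1.86. Krt2 had DMBA features at -2.02 and -0.18, against -2.53 in untreated tumours. For the other multi-feature members the averages lay within 0.72 of each other. With the first feature in the table alone, the DMBA means of Krt1 and Krt33b turned to 0.21 and 0.11 and neither was called.

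**Figure D3:**
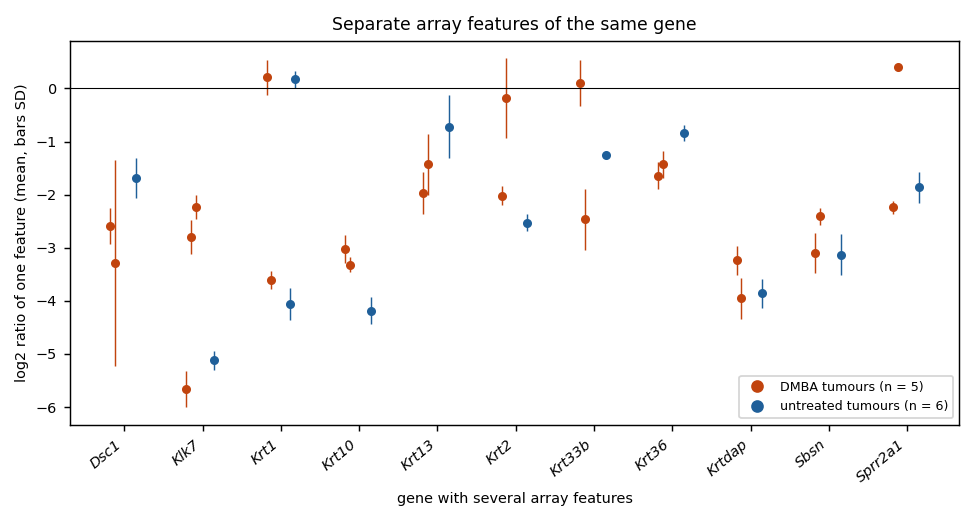
Mean log2 ratio of each array feature (y axis, bars SD over tumours) for the members with more than 1 feature in a table, in DMBA-treated (n = 5) and untreated (n = 6) tumours. The Krt1 pair sits near -4 and near 0 in both groups, and the Klk7 features on the DMBA arrays spread from -5.66 to -2.23.

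The groups cannot be compared by a test, since treatment, array type and data table cannot be told apart. Side by side, 36 of 52 members had a lower mean in DMBA-treated tumours and 16 a higher one, and the median difference was -0.31, beside -0.013 over all 16351 genes in both tables. For 12 members the DMBA-treated tumours lay below all untreated tumours with means at least 1 apart, where 5.06% of all genes did. These were Krt16, Krt20, Krt222, Krt25, Krt33a, Krt34, Krt6b, Krt71, Krt79, Krt86, Padi3 and Sprr1b, whose differences in means ran from -2.82 for Krt79 to -1.02 for Sprr1b. Sprr1b read -1.97, -1.89, -1.89, -1.08 and -1.72 in DMBA 1 to 5 and ran from -1.0 to -0.28 with a median of -0.72 in untreated tumours. For 3 members, Klk7, Krt2 and Krt10, the DMBA-treated tumours lay above, where 3.27% of all genes did. All 3 have several features on the DMBA arrays and a single one on the untreated arrays. Among the 41 members with a single feature in each table, 12 were lower and 0 higher in DMBA-treated tumours. After quantile normalization of all 11 arrays together, 8 were lower and 4 higher. For these alternative counts, matching shares over all genes were not counted. The groups' means lay within 1 of each other for 36 members, among them 4 of 4 envelope proteins and 12 of 13 Sprr genes. The share of all genes within 1 was not counted, so this count does not show closer agreement than usual.

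**Figure D4:**
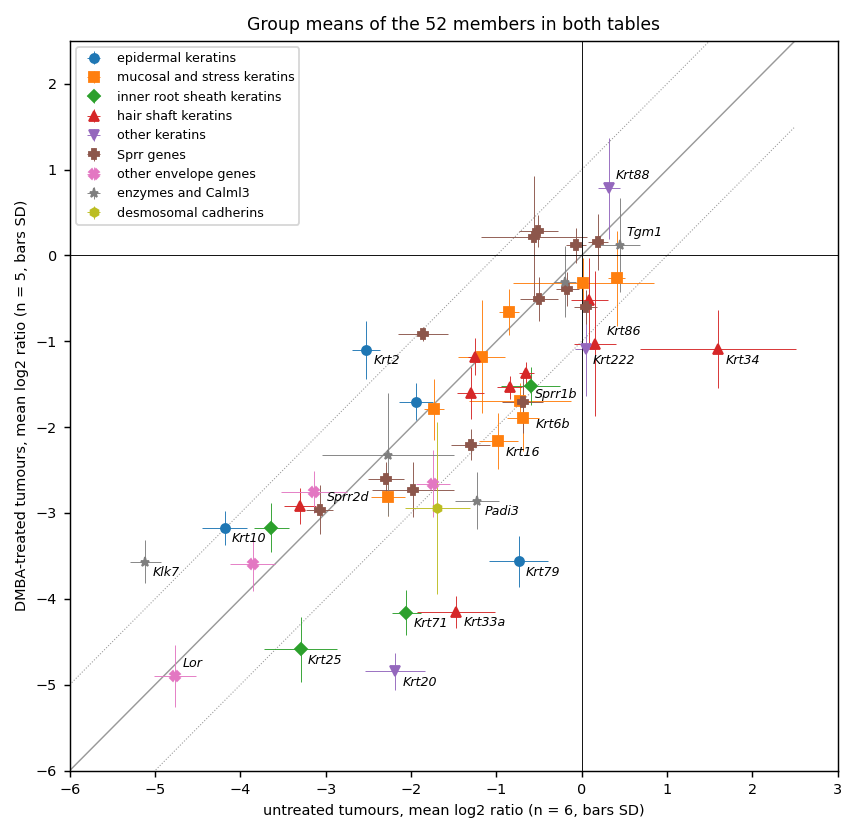
Mean log2 ratio of the 52 members in untreated (x axis, n = 6) and DMBA-treated tumours (y axis, n = 5), with bars for the SD over tumours. The solid line marks equal means and the dotted lines a difference of 1, and the named genes beyond the dotted lines are those whose groups did not overlap, such as Krt79, Krt33a and Krt34.

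Pearson's r between arrays over the 52 members lay between 0.917 and 0.948 in DMBA-treated and between 0.929 and 0.976 in untreated tumours. Over all genes it lay between 0.823 and 0.893 and between 0.865 and 0.939. These values describe genes, which are not independent, and all arrays share the kind of reference RNA. The median SD of a member was 0.29 and 0.22, beside 0.32 and 0.28 over all genes. DMBA 2 held the highest value of its group for 27 of 52 members (51.9%). It also held the highest value for 27.7% of all genes and for 41.1% of the genes lower by at least 1, and its array had the smallest SD of the DMBA arrays (1.32 against 1.33 to 1.43). After quantile normalization within the table the count was 13 for DMBA 2 and 17 for DMBA 5, the highest. In untreated tumours the highest count was 14, for untreated 4.

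Related genes outside the chosen set were drawn from lists of epidermal and hair biology. Of the left-out keratins, the basal keratins Krt5, Krt14, Krt15 and Krt17 and the simple keratin Krt19 were lower in each group, with Krt5 at -2.81 ± 0.11 and -3.65 ± 0.12. The luminal pair Krt8 and Krt18 was higher, with Krt18 at 2.56 ± 0.42 and 2.17 ± 0.21, and Krt7 was not called. Further envelope genes were lower in 23 of 30 in DMBA-treated and 16 of 24 in untreated tumours, with medians of -2.58 and -2.39. The lowest were Hrnr, hornerin, at -5.38 in DMBA-treated tumours and Lce1a1, a late cornified envelope gene, at -5.43 in untreated tumours. The highest was the deiminase gene Padi2 in each group, at 1.76 and 1.56. Hair follicle genes outside the members were lower in 14 of 18 and 5 of 14, and higher in 1 and 2. Their list medians were -1.55 in DMBA-treated and -0.33 in untreated tumours. Over all genes 31.7% and 32.1% were lower, so the untreated count was near the share of all genes. In DMBA-treated tumours Krtap3-2, a keratin-associated protein of the hair shaft, was the lowest (-2.87) and Dsg4, a desmoglein of the hair shaft, the highest (0.54). Neither gene was measured in untreated tumours, so the medians and extremes of the groups rest on different gene sets. In untreated tumours S100a3, a calcium-binding protein of the hair cuticle, was the lowest (-1.57) and Psors1c2 the highest (1.86).

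Counts for the other lists stand beside 31.7% of all genes lower and 26.1% higher in DMBA-treated tumours, and 32.1% and 28.8% in untreated tumours. Of 17 transcription factors of epidermal and hair differentiation, 8 were higher in each group, while 5 were lower in DMBA-treated and 6 in untreated tumours. Gata3 (4.38 ± 0.30) and Tfap2c (3.77 ± 0.11) were the highest factors of the DMBA-treated and untreated tumours, and both are also factors of mammary luminal cells. Klf4, a factor of the skin barrier, was the lowest in each group, at -3.28 ± 0.28 and -4.35 ± 0.40. Desmosome genes were lower in 4 and higher in 5 of 13 in DMBA-treated tumours, and lower in 3 and higher in 5 in untreated tumours. Pkp1, a plakophilin of stratified epithelium, was the lowest (-1.81 and -2.38), and Jup (1.71) and Pkp2 (1.94) were the highest in DMBA-treated and untreated tumours. Proteases and inhibitors were lower in 6 of 13 and 5 of 12 and higher in 3 and 5, with list medians of -0.48 and -0.18 and with St14, matriptase, the highest in each group (1.85 and 3.10). The lowest were Serpinb12 in DMBA-treated (-3.60) and Klk5 in untreated tumours (-3.54), and Klk5 was not measured in DMBA-treated tumours. Barrier lipid genes were lower in 8 and 5 of 13 and higher in 1 and 4, with list medians of -0.69 and 0.034. Elovl4, which lengthens the fatty acids of skin ceramides, was the lowest in each group (-4.42 and -3.21), and Slc27a4 (1.07) and Abhd5 (0.69) were the highest in DMBA-treated and untreated tumours.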

How the data were processed

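Tumour and reference RNA were hybridised to 2-colour arrays. The authors deposited a ratio, taken here as log2, per feature and array in a separate table for each array type. Scanner settings, background correction and normalization are not given in the sources used here. To read these tables, the log2 base was read from the range of the values and the direction from liver, muscle and brain genes. Array medians lay between -0.013 and 0.008, with no missing values. Features with 1 gene symbol in GEO's platform annotation were kept (33653 of 45220 for DMBA-treated and 18658 of 22575 for untreated tumours), and 33517 and 18445 of them matched RefSeq, with 0 symbols changed. Features were averaged per symbol, with at least 4 arrays per gene. For either group, limma 3.58.1 (R version 4.3.3; lmFit with an intercept, eBayes, two-sided) compared the ratios with 0 within that group's table, with Benjamini-Hochberg adjustment over all genes of the table and a call at an adjusted p under 0.05. Every p-value printed comes from that fit. No depth exists for arrays, and the number of arrays limits the precision. The group comparison has no test: genes were counted where tumour values of the groups were fully separate and their means were 1 or more apart. Whether features cross-read close relatives was not tested. The script was tested on simulated data. Members, lists and tests were chosen with earlier results of these data known. Every member was open to naming. Tumour values are printed for the extremes of each role, for members called higher, not called or lying apart between groups, for those with discordant features and for those with an outlying tumour. Related lists are named by their highest and lowest genes, and other list genes named were chosen after their values were seen. Alternatives varied feature averaging, normalization, exact zeros, the prior, the threshold and the tumours included.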

Additional observations from a re-analysis of the deposited data

Results flagged for a closer look

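In 11 of 114 sets of a gene and a group, 1 tumour lay outside the Dixon limit, and chance alone flags about 1 in 20. Among DMBA-treated tumours, Dsg1a was lowest in DMBA 3 at -4.82 (nearest tumour -3.71), Krt87 in DMBA 1 at -1.78 (nearest -0.57) and Sbsn in DMBA 4 at -3.17 (nearest -2.72). Klk7 was highest in DMBA 2 at -3.14 (nearest -3.62). DMBA 4 was highest for Sprr1b at -1.08 (nearest -1.72) and for Sprr4 at 1.47 (nearest 0.018). Among untreated tumours, Krt23 was highest in untreated 4 at 1.63 (nearest 0.015). Untreated 5 was highest for Krt33b at -1.10 (nearest -1.23) and for Krt42 at 1.45 (nearest 0.44). Krt80 was highest in untreated 3 at -0.93 (nearest -1.43), and Sprr1a in untreated 2 at -0.85 (nearest -1.30).

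For 2 genes every tumour of a group lay on the opposite side of 0 from every tumour of the other group. Krt34 was below the reference in DMBA-treated and above it in untreated tumours, with a difference in means of -2.69. Sprr2g was above it in DMBA-treated and below it in untreated tumours, with a difference of 0.79. Neither difference was tested, because treatment, array type and table cannot be told apart.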

How the results depend on the processing

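Of 1586 values of single genes under the alternatives, 1547 kept their side of the threshold, 33 lost the call, 4 gained one and 2 reversed. A change of sign was counted only where the gene was called in the main fit or in the alternative. Uncalled genes could thus change sign without being counted. The reversals were Krt1 and Krt33b in DMBA-treated tumours with only the first feature, at 0.21 and 0.105, and that setting moved the DMBA median to -1.84. Against a 1.5-fold threshold 22 calls were lost, and 0 members stayed higher in DMBA-treated and 1 in untreated tumours. With members of a single feature in each table, 0 were higher in DMBA-treated than in untreated tumours. Without a minimum difference, 19 of 52 were lower and 5 higher, where 9.84% and 8.37% of all genes in both tables were. After quantile normalization of all arrays together 8 were lower and 4 higher. With only features of the same accession in each table, an alternative chosen after seeing the data, 12 were lower and 3 higher. That setting kept 51 of 52 members and every feature of Klk7, Krt2 and Krt10, so its counts could hardly differ from the main ones. For these counts between groups, shares over all genes were counted only for the main setting and without a minimum difference. Leaving out 1 tumour gave 10 to 13 lower and 2 to 4 higher. Against the reference it gave 40 to 43 lower and 0 to 1 higher in DMBA-treated tumours, and 38 to 39 lower and 4 to 4 higher in untreated tumours, with medians from -1.70 to -1.64 and from -1.22 to -1.16. Krt82 gained a DMBA call without DMBA 4, with DMBA 3 and 4 averaged (adjusted p = 0.0195) and with genes of both tables alone (adjusted p = 0.0447), and Tgm3 without DMBA 2 (adjusted p = 0.0296). Why these calls moved was not tested. No paired analysis was possible because tumours were numbered in the order of their accessions and the labels pair no samples across groups.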
